A study of Homo sapiens with 4 samples.

Results

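The RGS genes encode regulators of G protein signalling. When a hormone or metabolite activates a G protein-coupled receptor, the receptor loads GTP onto a G protein alpha subunit, and the signal lasts until that GTP is hydrolysed. RGS proteins bind the active alpha subunit and speed the hydrolysis, so they shorten the signal. Several RGS genes are themselves switched on by the signals their proteins dampen, and RGS2, which acts mainly on the Gq class, is the usual example.

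The family members studied were RGS1, RGS2, RGS3, RGS4, RGS5, RGS10, RGS12, RGS14, RGS16 and RGS19, which are 10 of 18417 genes with a symbol of their own on the array. The family was chosen by the high cholate response of RGS2 in these same arrays, so the cholate responses below are a description and carry no test. Each member was read from a probe set that names no other gene, and each had a single such probe set. Affymetrix gene arrays measured RNA of Caco-2 cells, an established colorectal adenocarcinoma line that acquires enterocyte features after confluence. The cells had no genetic alteration stated in the labels and were grown either in regular 6-well plates or on Transwell inserts coated with collagen, which give the cells an apical and a basolateral side. They received vehicle or 2 mM sodium cholate, a primary bile acid, for 3 h, on the apical side in the inserts. The cholate solution contained no calcium, and what the vehicle was made of is not stated in the labels. Whether the cholate differences below include a difference in calcium therefore cannot be told.

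There were 4 arrays, 1 for each support and treatment, and each held RNA pooled from 3 samples. Day 21 of differentiation is labelled in all 4 conditions, whereas the growth protocol has plate cells used on day 14 and insert cells between day 14 and day 21. The values are log2 intensities. With 1 array in each condition no difference below has a replicate check, and fewer cells expressing a gene cannot be told apart from less RNA per cell. Array medians lay between 5.64 and 5.73. A gene was taken as above the floor when its mean over the arrays was at least 4.84, the 40th percentile of all probe sets, and 12900 named genes were. The epithelial markers averaged 10.5 on each array (10 of 10 measured genes above the floor). Single markers differed between supports, with Transwell minus plate in vehicle and in cholate at 1.0 and 0.56 log2 for the intestinal factor CDX2, at 0.39 and 0.83 for KRT20, and at -0.57 and -0.80 for APOA1. Of the other marker lists fixed for this report, 4 of 9 leukocyte genes, 5 of 9 pericyte and smooth muscle genes, 2 of 7 endothelial genes and 1 of 5 neuronal genes lay above the floor. PTPRC, which defines leukocytes, stood between 2.87 and 3.05 and CD3E, CD53, MS4A1 and ITGAM were also under the floor. The leukocyte genes above it were LCP1 (10.44 to 10.63), CD14 (8.39 to 8.79), CSF1R (6.82 to 6.92) and CD79A (5.29 to 5.45).

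The stretch of 250 bases before the transcription start is shown for RGS2 and RGS16, because these were the members with the largest cholate responses. The sequences are from RefSeq (GRCh38.p14), at chr1:192808789-192809038 on the plus strand for RGS2 and chr1:182604390-182604639 on the minus strand for RGS16. Capitals mark the matches to any of 7 motifs searched on both strands.
RGS2: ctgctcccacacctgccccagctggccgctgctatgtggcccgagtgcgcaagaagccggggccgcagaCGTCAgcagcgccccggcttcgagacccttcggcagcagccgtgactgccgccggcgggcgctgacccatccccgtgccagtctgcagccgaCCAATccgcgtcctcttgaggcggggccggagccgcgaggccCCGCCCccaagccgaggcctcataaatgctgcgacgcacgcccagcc
RGS16: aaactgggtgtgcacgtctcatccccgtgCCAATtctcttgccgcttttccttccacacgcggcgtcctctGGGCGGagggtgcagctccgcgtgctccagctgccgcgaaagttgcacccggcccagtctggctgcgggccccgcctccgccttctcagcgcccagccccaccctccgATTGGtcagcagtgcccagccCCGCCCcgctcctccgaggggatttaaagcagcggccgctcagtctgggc

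The letters TGACG, the core of the cyclic AMP response element bound by CREB, occurred in the RGS2 window from base -181 to -177 before the start, and not in the RGS16 window. They occurred in 21.2% of all 34788 distinct windows of this length. The full element TGACGTCA (1.64% of windows), the AP-1 letters TGANTCA (6.59%), the EGR1 letters GCGTGGGCG (0.722%) and the TATA letters TATAAA (10.8%) were in neither window. The TGACG letters are part of the full element, so these shares overlap. Both windows held the CCAAT letters (32.0% of windows), from -89 to -85 in RGS2 and from -221 to -217 and -71 to -67 in RGS16. Both also held the GC box letters GGGCGG (42.6% of windows), from -47 to -42 in RGS2 and from -179 to -174 and -50 to -45 in RGS16. Of the 24 windows listed for the 10 members, 6 held TGACG, beside the 21.2% of all windows, and nothing is read from this count. The 6 windows belonged to 5 genes, namely RGS1, RGS2, RGS3, RGS4 and RGS12. Of these, RGS3 and RGS12 have 5 windows each and RGS4 has 4, so the gene count cannot be set against a share of windows. A match describes the letters and does not show that a factor binds there.

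RGS2, whose protein prefers alpha subunits of the Gq class, read 7.51 in vehicle and 9.41 in cholate on plates. On Transwell it read 7.05 in vehicle and 7.95 in cholate. Plate cholate was thus the highest of the 4 arrays, followed by Transwell cholate, plate vehicle and Transwell vehicle. RGS2 was higher in cholate by 1.89 log2 (3.71-fold) on plates and by 0.90 log2 (1.86-fold) on Transwell. It stood at rank 9 of 12900 genes on plates and at rank 7 on Transwell, counted from the most positive response. These ranks restate the values that chose the family.

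RGS16, a second member of the same structural subfamily (R4, mostly small proteins made of little more than the RGS domain), showed the next largest response. Its protein acts on Gi and Gq alpha subunits, and its gene is known to be inducible in liver and lymphocytes. RGS16 read 5.44 in vehicle and 6.54 in cholate on plates, and 5.39 and 5.96 on Transwell. Both cholate arrays were above both vehicle arrays, and the 2 vehicle arrays differed by 0.05. The response was 1.11 log2 (2.15-fold) on plates and 0.57 log2 (1.48-fold) on Transwell, the latter just under the 1.5-fold mark. RGS16 stood at rank 51 on plates and rank 50 on Transwell.

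**Figure D1:**
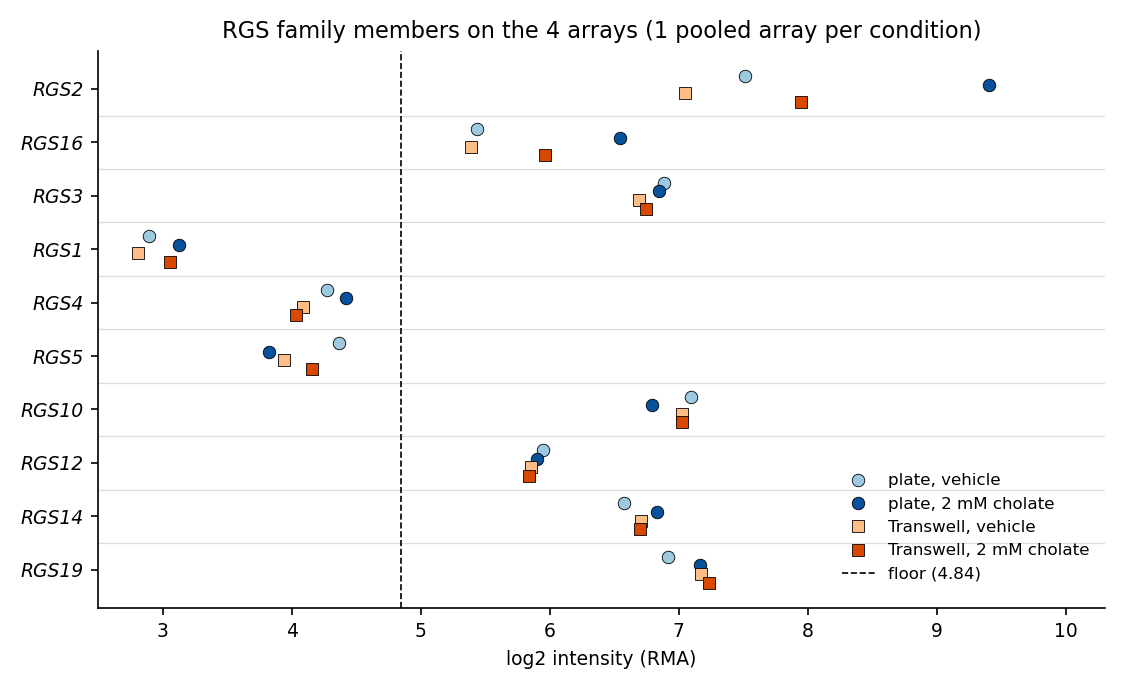
Log2 intensity of the 10 RGS members (rows) on the 4 arrays, 1 pooled array per condition, with circles for plates, squares for Transwell and darker colours for 2 mM cholate. The dashed line is the floor of 4.84. RGS2 and RGS16 have both cholate arrays to the right of both vehicle arrays, as does RGS1 under the floor. RGS1, RGS4 and RGS5 lie left of the floor.

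The other R4 members had no cholate difference of 1.5-fold on either support. RGS3, which also binds G protein beta-gamma subunits, read 6.88 and 6.85 on plates and 6.69 and 6.75 on Transwell in vehicle and cholate, a response of -0.04 and 0.05 log2. RGS1, best known from B lymphocytes, lay between 2.81 and 3.13 on all arrays. RGS4, a gene of brain and heart, lay between 4.03 and 4.42. RGS5, a pericyte gene, lay between 3.83 and 4.37. These 3 genes are under the floor on every array, where intensities are near background and a difference can be understated. RGS5 stood at -0.54 log2 in cholate on plates and at 0.22 on Transwell, and RGS1 at 0.23 and 0.25. RGS4 stood at 0.15 and -0.06. Its own probe set is the one used here, since 2 further probe sets name it together with ZNF320 and the ribosomal protein gene RPS27.

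Among the R12 members RGS10 is a short protein that acts on Gi, while RGS12 and RGS14 join the RGS domain to Ras-binding and GoLoco motifs. RGS10 read 7.10 and 6.79 on plates and 7.02 on both Transwell arrays, so plate cholate was its lowest array, at -0.31 log2 against plate vehicle. RGS12 stayed between 5.84 and 5.95, with responses of -0.05 and -0.02. RGS14 stood at 0.25 on plates and -0.004 on Transwell, with readings between 6.58 and 6.83. RGS19, a Gi regulator of the RZ subfamily also known as GAIP, read 6.92 and 7.17 on plates and 7.17 and 7.24 on Transwell. Its responses were 0.25 and 0.06 log2. Among these 4 genes plate vehicle was the lowest array for RGS14 and RGS19 and the highest for RGS10 and RGS12.

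Among the 7 members with levels above the floor, 2 (RGS2 and RGS16) reached 1.5-fold higher in cholate on plates and 0 were lower, where the shares among all 12900 genes were 1.49% higher and 2.35% lower. On Transwell 1 was higher (RGS2) and 0 lower, against 0.357% and 0.736% of all genes. As RGS2 chose the family, nothing is read from these counts. The median response of the 7 was 0.25 log2 on plates and 0.05 on Transwell, beside -0.03 and -0.01 over all genes. Over all 10 members it was 0.19 and 0.06.

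**Figure D2:**
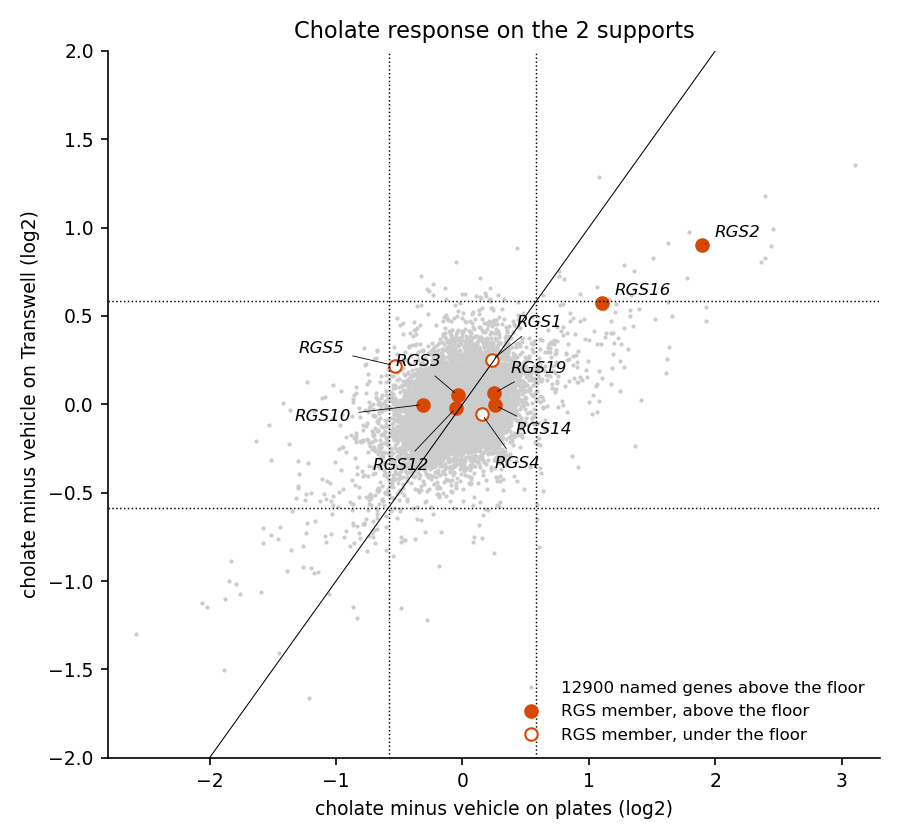
Cholate minus vehicle in log2 on plates (x axis) and on Transwell (y axis), with grey points for the 12900 named genes above the floor and orange points for the RGS members, open where under the floor. Dotted lines mark 1.5-fold and the solid line marks equal responses. RGS2 (1.89 and 0.90) and RGS16 (1.11 and 0.57) lie apart from the other 8 members and below the line of equal responses.

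Both responding genes had the smaller response on Transwell. The Transwell response was 47.5% of the plate response on the log2 scale for RGS2 and 51.6% for RGS16. The difference of the responses, Transwell minus plate, was -0.99 log2 for RGS2 and -0.54 for RGS16, and it has no test because it uses all 4 arrays. Among the 66 genes at least 2-fold higher in cholate on plates, a set picked on the plate value and including both genes, the median Transwell response was 0.46 log2, the median ratio of the responses was 0.339, and 18 were at least 1.5-fold higher on Transwell too.

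The comparison of Transwell with plate described the same genes on the 2 supports. Inserts also differed from plates in collagen coating, in size and, by the growth protocol, in the day of use (14 for plates, 14 to 21 for inserts). These cannot be told apart from the support itself. RGS2 was lower on Transwell by 1.38-fold in vehicle (-0.47 log2) and by 2.75-fold in cholate (-1.46 log2), so its gap between supports was wider under cholate. In cholate it stood at rank 21 of 12900 counted from the most negative. RGS16 was nearly level in vehicle (-0.05) and lower on Transwell in cholate (-0.58, just under the 1.5-fold mark). The gap in cholate is the gap in vehicle plus the difference of the responses, so it is no separate observation and rests partly on the values that chose the family.

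Among the remaining members no support difference reached 1.5-fold. RGS19 was higher on Transwell by 0.25 log2 in vehicle and 0.07 in cholate, and RGS3 stood at -0.19 and -0.10. RGS12 stood at -0.10 and -0.06, RGS14 at 0.13 and -0.13, and RGS10 at -0.07 and 0.23. Under the floor, RGS5 stood at -0.42 and 0.33, RGS4 at -0.18 and -0.39 and RGS1 at -0.09 and -0.07. Counting RGS2 and RGS16 with them, 0 of the 7 members above the floor reached 1.5-fold in either direction between supports in vehicle, while 1.93% of all genes were higher and 3.16% lower. In cholate 0 of the 7 were higher on Transwell and 1 lower (RGS2), against 4.02% and 3.75%. A count of 0 among 7 is near these shares and RGS2 chose the family, so nothing is read from these counts.

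**Figure D3:**
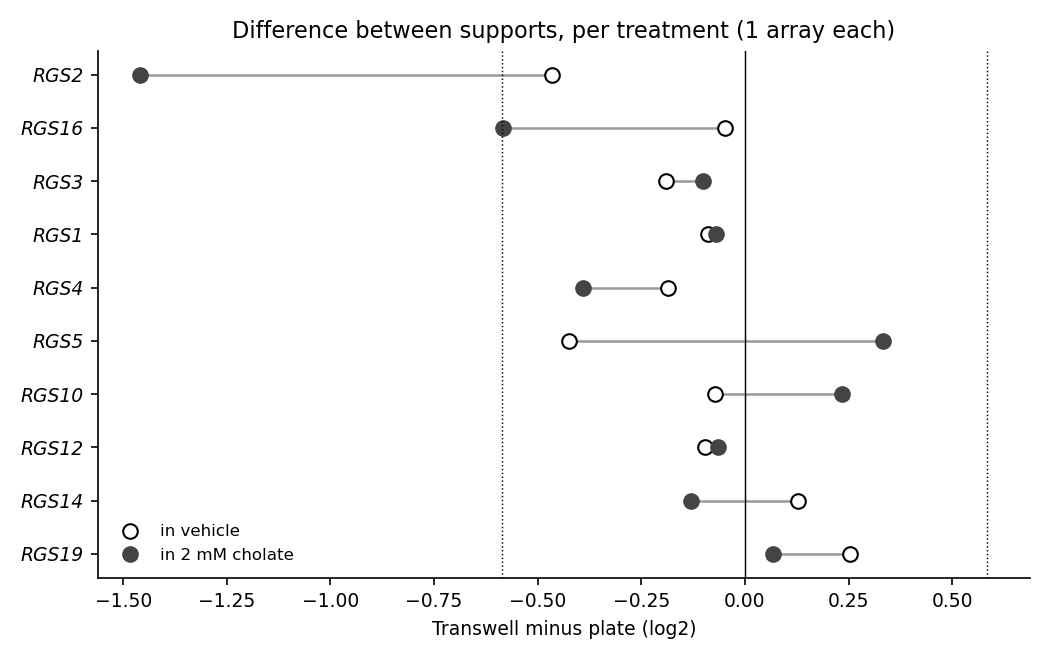
Transwell minus plate in log2 for each RGS member, open circles in vehicle and filled circles in 2 mM cholate, 1 array on each side of every difference. Dotted lines mark 1.5-fold. RGS2 has the longest bar, from -0.47 in vehicle to -1.46 in cholate, and RGS16 goes from -0.05 to -0.58.

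The support difference was tested over both treatments with limma, in a model with a support term and a treatment term fitted to all 19978 probe sets above the floor. For RGS2 the mean difference was -0.96 log2 with a limma SE of 0.27 and an adjusted p of 0.172 (unadjusted 0.025). These are the 4 values whose cholate responses chose the family. The SE rests on the difference between those responses, so for RGS2 the SE and the p are not independent of that choice. RGS16 had a mean of -0.31 (SE 0.16, limma adjusted p 0.329), RGS19 one of 0.16 (SE 0.10, limma adjusted p 0.393) and RGS3 one of -0.15 (SE 0.09, limma adjusted p 0.394). RGS10 and RGS12 had adjusted p of 0.710 and 0.619 in the same limma fit, and RGS14, whose differences in vehicle and in cholate cancelled, had 0.9999. Of all probe sets 0% passed in either direction at an adjusted p under 0.05, although 4519 had an unadjusted p under 0.05, and the smallest adjusted p was 0.0858. The fit has 1 residual degree of freedom, which is the difference between the 2 cholate responses, so a gene such as RGS2 that answered more on plates counts as noisy. Its SE does not measure the spread between cultures.

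The rest of the family lay mostly under the floor. Of 11 other RGS genes, 10 lay under the floor: RGS6, RGS7, RGS8, RGS9, RGS13, RGS17, RGS18, RGS20, RGS21 and RGS22. The single gene above it was RGS11, an R7 subfamily member that needs the beta subunit GNB5 for stability. RGS11 was lowest in plate vehicle, at 4.86, and lay between 5.39 and 5.45 in the remaining conditions, which gave 0.54 log2 for cholate on plates, -0.05 for cholate on Transwell, and 0.59 for Transwell in vehicle. A low plate vehicle reading and a response on plates cannot be told apart for this gene. GNB5, 1 of 5 listed partners of the R7 proteins and the single one above the floor, read 6.98 and 6.93 on plates and 6.40 and 6.25 on Transwell, a support difference of -0.58 in vehicle and -0.69 in cholate (limma adjusted p 0.111) with cholate responses of -0.04 and -0.15.

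No gene above the floor next to RGS2 or RGS16 on the chromosome was 1.5-fold higher in cholate. In RefSeq order, RGS2 lies in a cluster with RGS18, RGS21, RGS1 and RGS13 on one side, all under the floor, and UCHL5, RO60 and GLRX2 on the other. UCHL5, a deubiquitinase of the proteasome, stood at -0.24 log2 on plates and 0.09 on Transwell. RO60, an RNA-binding autoantigen, stood at -0.11 and 0.04, and the glutaredoxin gene GLRX2 at -0.07 and 0.08. Beside RGS16 lies RGS8, which lay between 4.35 and 4.83, with responses of 0.49 and 0.19 and every array under the floor. NPL, a sialic acid lyase gene beyond RGS8, went the other way on plates, at -0.97 on plates and -0.12 on Transwell.

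Genes with the pattern nearest to RGS2 were found by the distance between the 4 values of each gene, centred on their mean, over the 4 arrays. A distance of 0 would be an identical pattern, and the median over 12899 genes was 1.798. The nearest were the histone genes H2AC11 (0.267) and H4C9 (0.278), followed by the small nucleolar RNA SNORD77 (0.342), the pseudogene HSD17B7P2 (0.349) and the microRNA precursor MIR425 (0.480). Then came the kinase gene PLK2 (0.485), SNORD82 (0.531), SNORD50B (0.545), the AP-1 subunit gene FOSB (0.601) and SNORD4B (0.626). SNORD82 read 4.48 and 5.87 on plates and 4.25 and 4.79 on Transwell, so it passed the floor only through plate cholate. SNORD77 read 4.88 and 6.67 on plates and 4.66 and 5.63 on Transwell. Its plate vehicle reading was just above the floor and its Transwell vehicle reading under it, so it passed the floor through its cholate arrays. H2AC11 read 8.00 and 9.78 on plates and 7.79 and 8.50 on Transwell. PLK2 read 7.64 and 8.96 on plates and 7.16 and 7.70 on Transwell, the same order of arrays as RGS2, with its plate vehicle and Transwell cholate readings closer together. RGS16, at a distance of 0.884, stood at place 46, and the other 5 members above the floor at place 2419 or beyond. The RGS2 pattern holds the cholate responses that chose the family, so these places partly restate that choice. Likeness over 4 values says nothing of shared function or control.

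**Figure D4:**
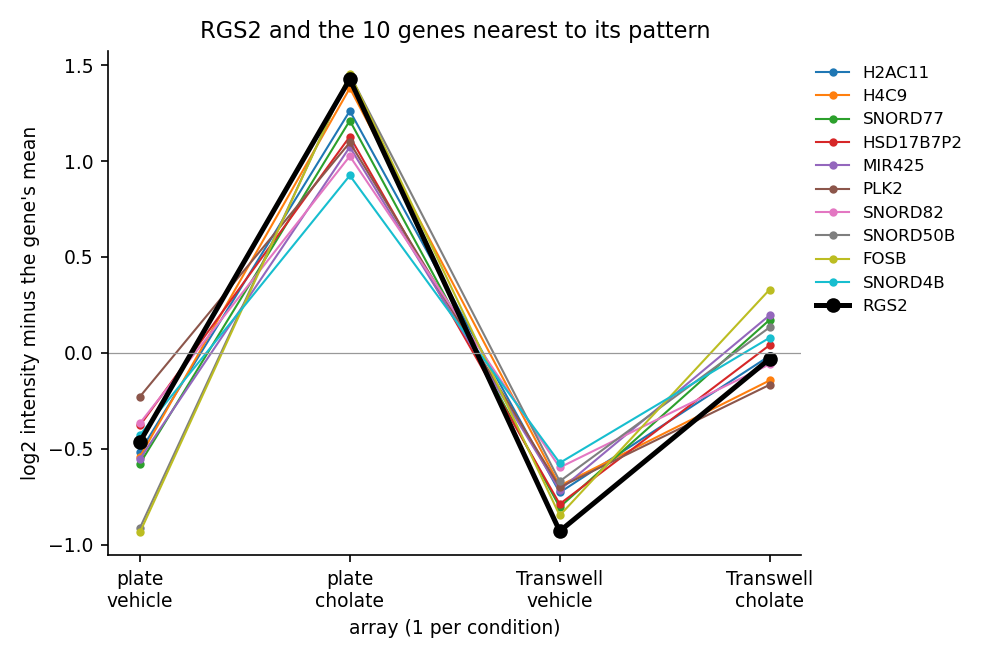
Log2 intensity minus the gene's own mean on each of the 4 arrays (x axis, 1 array per condition), with RGS2 as the thick black line and the 10 genes nearest to it as thin lines. Every line peaks on plate cholate, which follows from picking genes by nearness to RGS2. Lines join arrays only to show each gene's pattern.

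The remaining genes of the pathway were set beside the RGS members in the order receptor, G protein, effector and output. Over all genes, 1.49% were 1.5-fold higher and 2.35% lower in cholate on plates, 0.357% and 0.736% on Transwell, and between 1.93% and 4.02% differed in each direction between supports. At these shares a count of 0 among 8 to 13 genes is near the background, and nothing is read from the counts of 0 below. Of 12 receptors above the floor on a list of bile acid and epithelial receptors, 0 were 1.5-fold higher or lower in cholate on either support, and the median response was 0.02 log2 on plates and 0.06 on Transwell. FFAR4, a fatty acid receptor, stood at -0.23 and -0.18. PTGER2, a prostaglandin E2 receptor, stood at 0.15 on each support and at 0.63 for Transwell minus plate in each treatment (limma adjusted p 0.110). ADORA2B, an adenosine receptor, stood at -0.43 and -0.36 for Transwell minus plate. Both bile acid receptors below were named after their values were seen. GPBAR1, which signals through Gs, read 4.76 to 4.93, with a mean just under the floor, and S1PR2, which binds conjugated bile acids, read 6.59 to 7.03, with cholate responses of -0.21 and 0.22.

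Of 10 alpha subunit genes above the floor, 0 were 1.5-fold apart in any of the 4 comparisons. GNA15, a Gq class gene, stood at -0.34 and -0.26 in cholate, and GNA12 at -0.11 and -0.21. GNAQ and GNA11, the substrates RGS2 is best known for, were also named after their values were seen. GNAQ read 8.87 to 9.08 on all arrays. GNA11 was lowest in plate vehicle, at 9.06, and lay between 9.42 and 9.56 elsewhere, giving 0.36 and -0.06 for cholate. Of 9 beta and gamma subunit genes, 0 were 1.5-fold apart in cholate, and GNG4 was higher on Transwell by 0.85 in vehicle and 0.44 in cholate. GNG12 was higher by 0.48 and 0.43, and GNG8 and GNG7 had cholate responses of 0.27 and 0.15, and of 0.13 and 0.10.

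Among 12 genes of Gq effectors and calcium release, 0 were 1.5-fold apart in cholate on either support. On Transwell 2 were lower than on plates in vehicle and 3 in cholate, against 3.16% and 3.75% of all genes, and 0 were higher. ITPR2, a calcium release channel of the endoplasmic reticulum, read 8.47 and 8.48 on plates and 7.53 and 7.54 on Transwell, lower by 0.94 and 0.93 log2 (limma adjusted p 0.0858). PRKCE, a protein kinase C gene, stood at -0.69 and -0.65 for Transwell minus plate (limma adjusted p 0.108). The diacylglycerol kinase genes DGKA (0.21 and 0.24) and DGKD (-0.15 and -0.22) had opposite cholate responses. Among 13 genes of cyclic AMP synthesis, protein kinase A and PDE4, 0 were 1.5-fold apart in any comparison. PDE4C stood at 0.25 and 0.48 in cholate and ADCY1 at -0.25 and -0.19, while ADCY3 stood at -0.43 for the supports in each treatment and PRKACA at -0.11 and -0.28.

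Of 13 other proteins with an RGS domain above the floor, 0 passed 1.5-fold in any comparison, with AXIN2, a WNT feedback gene, at -0.55 and -0.15 in cholate and the receptor kinase gene GRK5 at 0.09 on each support. Of 8 other G protein regulators, 0 were 1.5-fold apart in cholate or in vehicle and 1 was higher on Transwell in cholate, GPSM2 at 0.66, named after its value was seen (4.02% of all genes were higher). RIC8A, an alpha subunit chaperone, stood at -0.34 and -0.10 in cholate and PCP2 at 0.10 and 0.06. PDCL stood at 0.26 and 0.47 and RIC8B at 0.24 and 0.41 for Transwell minus plate.

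The output list, genes induced by cyclic AMP or calcium, was the single list in which cholate responses of 1.5-fold occurred. Of 13 members above the floor, 6 were 1.5-fold higher on plates and 3 on Transwell, against 1.49% and 0.357% of all genes. None was lower (0 of 13 on either support), against 2.35% and 0.736%. The median was 0.56 log2 on plates and 0.47 on Transwell, beside -0.03 and -0.01 over all genes. NR4A2 (1.27 and 0.79) is in both counts of higher genes, but it read 4.64 and 4.74 in vehicle, under the floor. It passed the floor only through its cholate arrays, so its place in these counts is no support. NR4A3 (mean 4.86) likewise passed only through plate cholate, and EGR3 (mean 4.75) was left out. FOSB stood at 2.39 and 1.18 and EGR1 at 1.08 and 1.28. These genes answer to many stimuli, and their response was known when the list was made, so the list is not independent evidence. For Transwell minus plate 5 of the 13 were 1.5-fold lower in vehicle and 8 in cholate, against 3.16% and 3.75% of all genes, and 0 were higher in either (1.93% and 4.02% of all genes). EGR1 stood at -1.75 and -1.54 and DUSP1, a MAP kinase phosphatase gene, at -1.04 and -0.97 (limma adjusted p 0.0858 for each). EGR1 was thus far lower on Transwell in vehicle, where RGS2 differed by -0.47.

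**Figure D5:**
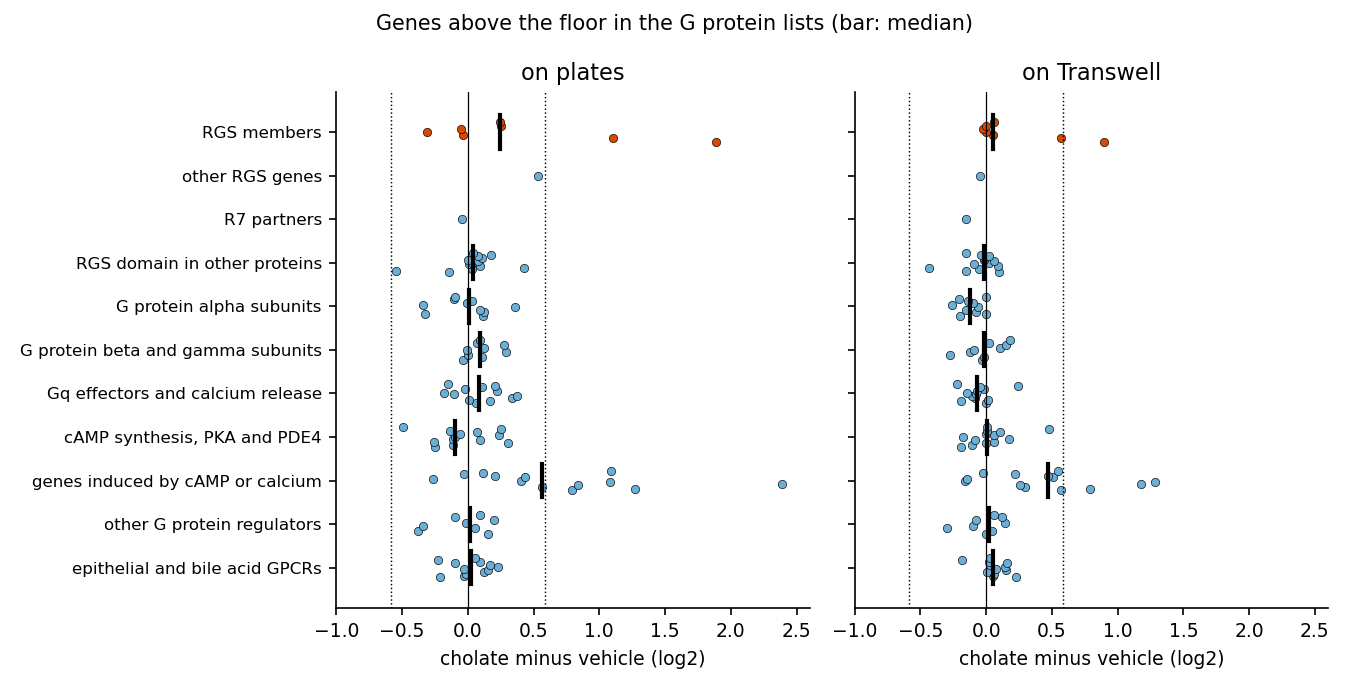
Cholate minus vehicle in log2 on plates (left) and on Transwell (right) for the RGS members above the floor (orange) and the genes above the floor in 10 lists of G protein signalling (blue), with a black bar at each median of 2 or more genes. Dotted lines mark 1.5-fold. Only the RGS members and the genes induced by cyclic AMP or calcium have points to the right of the upper dotted line.

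For the treatment term of the limma fit, 0 genes of the 10 lists passed in either direction, and 0% of all probe sets did (2162 of 19978 had an unadjusted p under 0.05, and the smallest adjusted p was 0.312). For the support term 0 genes of these lists passed either. Pericyte and smooth muscle markers, among which RGS5 is often counted, averaged between 5.63 and 5.87 over the arrays, lower on both Transwell arrays. Of these genes ABCC9, a potassium channel subunit, stood at -0.97 and -0.93 for Transwell minus plate, its partner KCNJ8 at -0.48 and 0.01, and PDGFRB at -0.15 and -0.47. NOTCH3 (0.27 and -0.11) and DES (0.10 and -0.09) were higher on Transwell in vehicle, and ACTA2, MYH11, CNN1 and CSPG4 lay under the floor. In vehicle the mean is thus not a shift shared by the list. In cholate all of the list but KCNJ8 were lower on Transwell. After ABCC9 and PDGFRB the largest of these differences were MYH11 at -0.21, CNN1 at -0.18 and ACTA2 at -0.17, which lie under the floor. The part of these and of the epithelial markers in the support differences was not tested.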

How the data were processed

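The authors deposited RMA log2 intensities, 1 value per probe set and array, and the method is named in the submitters' processing notes without a version. RMA corrects background, normalizes between arrays and summarises probes, so a change shared by most genes would be hidden and differences near background are compressed. The 4 arrays carry no replicates and no scan batch is given in the sources used here. Of 33297 probe sets, 19460 had 1 listed symbol, 1754 several and 12083 none. Gene numbers of 19429 of the first were found in RefSeq (GRCh38.p14) and 0 symbols changed. For each gene the probe set with the highest mean was used.

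Differences between 2 arrays were counted at 1.5-fold, with no test. The test across all genes was limma 3.58.1 in R 4.3.3 (lmFit, eBayes, additive model of support and treatment, 2-sided, Benjamini-Hochberg), checked on simulated data. There the fit returned the planted shifts on average but called none of the smaller ones. Only a small share of probe sets was shifted there, so its recovery need not hold for these data. With 4 arrays a lack of calls is still no sign that genes were alike. The prior had 2.83 degrees of freedom. Precision is limited by the number of arrays.

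Genes were named by rule: all members, other RGS genes above the floor, and up to 4 genes of each list, 2 by the smaller of the 2 cholate responses of equal sign and 2 by the same measure for support, and the 10 nearest to RGS2. RGS genes under the floor were listed too. Genes beside the members on the chromosome, GPBAR1, S1PR2, GNAQ, GNA11, GPSM2, NR4A2, NR4A3, EGR3 and single markers were added after values were seen. The members and lists were chosen with earlier results of these data known. Alternatives were median centring, quantile and cyclic loess normalization, other probe set rules, floors and fold marks, and an intensity trend in limma.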

Additional observations from a re-analysis of the deposited data

Results flagged for a closer look

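There were 5 members whose differences had opposite signs on the 2 supports or under the 2 treatments, each over single arrays, and these differences were not tested. For RGS14 and RGS3 a sign rests on a value as small as -0.004 and -0.04 log2, which gives no direction. For RGS5 the cholate response on Transwell minus that on plates was 0.756 log2 (0.22 against -0.54), with every array under the floor. For RGS4, also under the floor, it was -0.207 (-0.06 against 0.15). For RGS14 it was -0.259 (-0.004 against 0.25) and for RGS3 0.0886 (0.05 against -0.04). RGS10 had a Transwell minus plate difference of -0.07 in vehicle and 0.23 in cholate, 0.307 apart. None of the single differences in these 5 genes reached 1.5-fold in the deposited values.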

How the results depend on the processing

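The RGS2 values kept their direction and their side of the 1.5-fold mark under median centring, quantile and cyclic loess normalization; the other probe set rules could not change them, since RGS2 has a single probe set. They ranged from 1.82 to 1.90 log2 for cholate on plates, 0.85 to 0.91 for cholate on Transwell, -0.50 to -0.45 for Transwell minus plate in vehicle and -1.49 to -1.42 in cholate. RGS16 ranged from 1.03 to 1.11 on plates and from 0.52 to 0.57 on Transwell. With a floor at the 60th percentile RGS16 was not counted, and 1 member in place of 2 was 1.5-fold higher on plates. With a 2-fold mark 0 members in place of 1 were higher on Transwell. RGS5 on plates was 1.5-fold lower after median centring (-0.61) and quantile normalization (-0.60). Where probe sets with several symbols were allowed, RGS4 was read from a probe set shared with RPS27, and its support differences became 0.17 and 0.09. The limma support term called 0 probe sets in the main fit, 807 with a floor at the 60th percentile and 293 with an intensity trend; 0 members were among them, and the adjusted p of RGS2 was 0.0792 and 0.117. It ranged from 0.0792 to 0.270 over all alternatives. No paired analysis was possible because each condition has 1 array and the labels give no replicate numbers, and for the same reason no replicate could be left out. Depth has no counterpart here, and signal near background limits RGS1, RGS4 and RGS5.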
